A study of Mus musculus with 12 samples.

Results

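The regions described here were 3146 intervals of histone H3 lysine 27 acetylation (H3K27ac) that were called in cells with induced GLI1 and not in untreated cells, and that lay more than 50 kb from every listed GLI1 site with a GLI motif. They were chosen from the 76437 H3K27ac intervals of the induced cells by 3 conditions: a highest −log10 q of the authors' peak caller of at least 10, no base pair shared with any of the 67463 H3K27ac intervals of the untreated cells, and no listed GLI1 site within 50 kb. The presence of a call, its −log10 q and its fold enrichment therefore chose the regions, and these values are given below as a description, with no test. Of the 27878 induced-cell intervals at this −log10 q, 5528 (19.8%) shared no base pair with a control interval. The 3146 regions far from GLI1 sites were 11.3% of the 27878 and 56.9% of the 5528.

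H3K27ac is a chemical mark on nucleosomes beside active promoters and enhancers, and new acetylation away from promoters is commonly read as a trace of enhancers that have come into use. GLI1 is a zinc finger transcription factor at the end of the Hedgehog pathway, which binds DNA at a GLI motif and promotes transcription, and Hedgehog signalling acts in heart development on the progenitor cells of the second heart field. A factor of this kind can be followed by acetylation beside its own sites and by acetylation elsewhere, and the intervals described here are of the second kind by position alone.

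The cells were cardiac progenitors differentiated from mouse embryonic stem cells of the cell line GLI1-FTA, made in the A2Lox.cre strain, in which doxycycline switches on a tagged GLI1. Control cells were left untreated, and induced cells received 500 ng/ml doxycycline for 24 hours from day 5 of differentiation. All cells were harvested on day 6, and both conditions came from this 1 line, with no doxycycline-treated line lacking the transgene among the groups used. The series holds 12 samples in 6 groups (input, GLI1 pull-down and H3K27ac in each condition), and each of the 3 lists used here pools the 2 samples of its group, so no value has a spread between samples and no p-value is given.

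The induced list was the deeper of the H3K27ac pair. The uniform background that the peak caller used, recovered from its fold enrichments and p-values, was 2.83 reads in the control list and 3.63 reads in the induced list, a ratio of 1.28. At that background the control list held summits down to 9 reads and a fold enrichment of 2.60, whereas the regions described here had between 24 and 161 reads at their strongest summit, with a median of 31. Divided by the ratio of the backgrounds, the lowest of them would have held 18.7 reads and the median 24.2. Of 14 cardiac progenitor genes, 9 had an interval within 1 kb of an end in control cells and 8 in induced cells. Most of those with one in both had the lower fold enrichment in induced cells: 24.5 in control and 10.8 in induced cells at Hand2, 18.9 and 11.5 at Hand1, 10.4 and 3.74 at Tnnt2, 17.3 and 12.6 at Tbx20 and 26.7 and 20.5 at Gata6. At Isl1, a second heart field factor gene, the values were 20.2 and 21.0, and at Pdgfra 2.62 and 5.14. Myl7 and Actc1 had an interval in control cells alone and Kdr in induced cells alone, while Nkx2-5, Gata4, Tbx5 and Mef2c had none there in either. Genes of endothelium and blood had such an interval at 9 of 30 in control and 15 of 30 in induced cells, and those of endoderm at 8 and 11 of 25. Neural and neural crest genes had one at 4 and 5 of 27, and pluripotency genes at 11 and 10 of 25. The share over all genes is not given here, and the induced list is the deeper. The part of these markers in the results below was not tested. Cell composition and acetylation per cell cannot be told apart in these lists.

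Among the regions that covered an annotated start site, those at F2rl3, Fgfr2, F11, Fgf7 and Runx2 are shown by the 250 bases upstream of the start, because each start lies inside new acetylation and the genes are described below. The sequences are RefSeq's for GRCm38.p6, the assembly also called mm10, read 5′ to 3′ on the strand of the gene. Capitals mark matches, on either strand, to any of 20 short factor motifs that were searched. The F2rl3 stretch is chr8:72761409-72761658 on the plus strand, the Fgfr2 stretch chr7:130266809-130267058 on the minus strand, the F11 stretch chr8:45262032-45262281 on the minus strand, the Fgf7 stretch chr2:126034408-126034657 on the plus strand and the Runx2 stretch chr17:44814628-44814877 on the minus strand.
F2rl3: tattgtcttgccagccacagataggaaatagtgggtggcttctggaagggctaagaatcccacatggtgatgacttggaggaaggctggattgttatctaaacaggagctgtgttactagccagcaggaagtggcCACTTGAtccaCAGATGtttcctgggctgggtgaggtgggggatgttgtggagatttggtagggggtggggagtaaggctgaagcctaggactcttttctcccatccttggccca
Fgfr2: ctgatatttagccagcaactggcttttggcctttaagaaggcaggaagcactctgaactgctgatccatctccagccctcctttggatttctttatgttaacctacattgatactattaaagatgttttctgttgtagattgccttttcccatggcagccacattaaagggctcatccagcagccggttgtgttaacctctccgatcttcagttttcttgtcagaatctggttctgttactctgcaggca
F11: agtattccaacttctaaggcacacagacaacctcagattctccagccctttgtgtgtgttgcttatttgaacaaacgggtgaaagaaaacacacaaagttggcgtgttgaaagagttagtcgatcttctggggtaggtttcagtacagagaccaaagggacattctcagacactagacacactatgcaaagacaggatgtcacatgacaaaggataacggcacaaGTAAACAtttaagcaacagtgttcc
Fgf7: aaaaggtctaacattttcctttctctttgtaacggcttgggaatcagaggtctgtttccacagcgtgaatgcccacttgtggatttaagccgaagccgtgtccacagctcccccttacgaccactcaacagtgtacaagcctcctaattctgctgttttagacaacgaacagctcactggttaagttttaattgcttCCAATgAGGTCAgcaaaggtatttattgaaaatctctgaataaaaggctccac
Runx2: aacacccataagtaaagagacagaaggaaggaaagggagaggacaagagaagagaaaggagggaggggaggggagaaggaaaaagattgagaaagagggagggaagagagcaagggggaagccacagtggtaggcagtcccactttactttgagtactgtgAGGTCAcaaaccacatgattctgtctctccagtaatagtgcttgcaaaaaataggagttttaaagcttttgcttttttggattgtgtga
The capitals in the F2rl3 stretch are CACTTGA, a match to an NK2 homeobox motif, and CAGATG, an E-box. Those in the F11 stretch are GTAAACA, a forkhead motif read on the other strand. Fgf7 holds CCAAT and AGGTCA, the latter a nuclear receptor core that Runx2 also holds, and the Fgfr2 stretch holds none of the 20. A match is a description of letters and not of binding.

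The median fold enrichment of the 3146 regions at their strongest summit was 6.48, with a lowest value of 4.25, an upper quartile of 8.21 and a highest value of 35.0. A fold enrichment of at least 10 was reached by 405 regions (12.9%) and of at least 20 by 11. New intervals within 50 kb of a GLI1 site, 2382 in number, had a median of 7.25, and 28.7% of them reached 10. The 17859 induced-cell intervals that overlapped a control interval and were as far from GLI1 sites had a median of 9.72. The median width was 1059 bp, with a range from 214 to 7209 bp, and the regions covered 3.83 Mb in all. A width of at least 2 kb was found for 13.5% of them, against 28.3% of the new intervals beside GLI1 sites and 25.1% of the shared ones. Beside these 2 sets they were thus mostly moderate, narrow calls, with few among the strongest of the list. Intervals called in control alone and as far from GLI1 sites had a median fold enrichment of 6.53, and 7.26% of them reached 10. Their median width was 771 bp, and 4.92% were at least 2 kb wide. The part of depth in this difference was not tested.

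**Figure D1:**
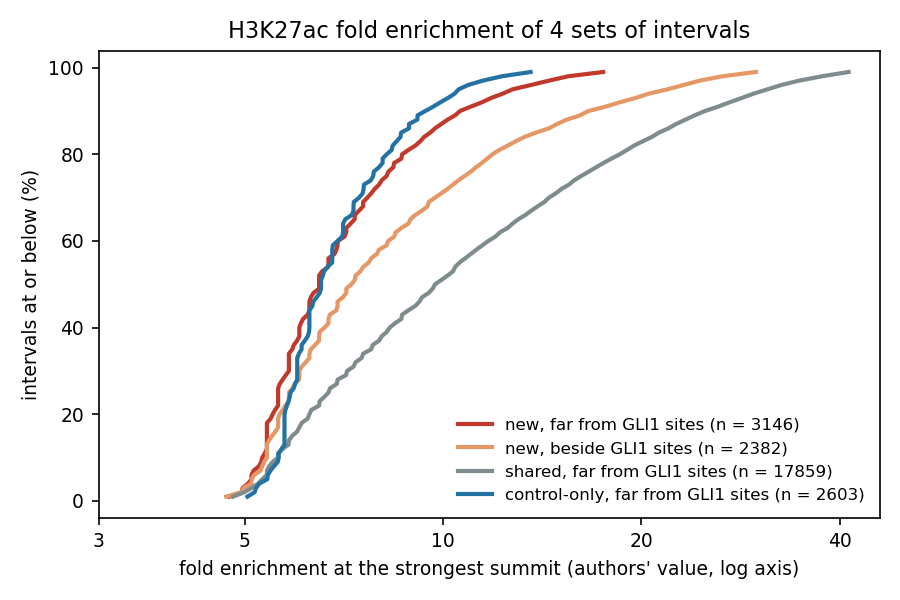
Cumulative share of intervals (vertical axis, %) at or below each fold enrichment (horizontal axis, log scale) for the 3146 new intervals far from GLI1 sites and 3 comparison sets. The curve of the new intervals far from GLI1 sites lies near that of the intervals called in control alone up to its median of 6.48, and left of the new intervals beside GLI1 sites (median 7.25) and the shared intervals (median 9.72).

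The same rule with the conditions exchanged gave 2603 control-only intervals far from GLI1 sites, 9.59% of the 27140 control intervals with a −log10 q of at least 10. Without the condition on GLI1 sites these were 2898, or 10.7%. The regions new with doxycycline were thus 1.21 times as many as those seen in control alone. The ratio fell below 1 under 2 alternatives: it was 0.849 when the −log10 q minimum of the deeper list was raised by the ratio of depths, and 0.937 when a fold enrichment of at least 5 replaced that minimum. It was 1.82 at a −log10 q of at least 20 in each list. The number of regions far from GLI1 sites is therefore given with its mirror image in the main comparisons below.

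The 3 regions just inside the −log10 q limit, in Rbfox2, in Dennd1a and 18530 bp from Gne, had values of 10.0, 10.1 and 10.1, and the nearest intervals outside had 9.94, 9.96 and 9.96. Between 10 and 11 lay 396 regions, and 836 intervals that met every other condition lay between 9 and 10. At the distance limit, the nearest region inside, in the axon guidance receptor gene Robo2, was 50098 bp from a GLI1 site, and the nearest interval outside was 49830 bp away. A region 50194 bp from a GLI1 site, 63570 bp from the neural factor gene Sox11, had a fold enrichment of 19.2.

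The strongest region was chr15:102655173-102659225, between genes, 3643 bp from Atp5g2, which encodes a subunit of the mitochondrial ATP synthase, and across the start of the long noncoding RNA Gm4544. Its fold enrichment was 35.0, from 161 reads at the strongest of 5 summits, and the nearest control interval was 10412 bp away. The region with the next highest −log10 q, chr7:83736288-83738110 in Il16, a cytokine gene, had a fold enrichment of 26.4 and lay 749 bp from an Il16 start site and 74919 bp from any control interval. A region at chr3:82249110-82252174, 103164 bp from Gucy1a1, a subunit of the nitric oxide receptor guanylate cyclase, had 24.4. Between genes, at chr12:33715781-33719596, 208829 bp from Ferd3l, a basic helix-loop-helix factor gene, the value was 24.6. Inside Lars2, the mitochondrial leucyl-tRNA synthetase gene, chr9:123430454-123433472 had 24.4. A region at chr4:139976334-139978963, 8308 bp from Klhdc7a, had 23.8 and was 51503 bp from a GLI1 site, close to the limit of the rule.

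The other 9 of the 15 strongest regions had fold enrichments from 18.1 to 22.7. They lay in Sult5a1, Ssu72, Bcas3, Pus10, Etnk1 and Cacna2d3, and at distances of 43928 bp from Zfp703, 129743 bp from Adamts18 and 219525 bp from Prep. The region near Prep was 140122 bp from the nearest control interval, and that in Ssu72 was 2733 bp away from one. Of these 15 regions, 13 remained under each alternative rule that was run for them. They were picked for a high −log10 q outside skipped stretches. Only the wider GLI1 distance and the gap to control could therefore remove any. The regions near Klhdc7a and in Bcas3 dropped out when GLI1 sites within 100 kb were barred.

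Only 199 of the 3146 regions (6.33%, exact 95% interval 5.50 to 7.23%) lay within 1 kb of an end of a protein-coding gene. The share was 45.0% for shared intervals far from GLI1 sites, 4.53% for new intervals beside GLI1 sites and 6.80% for control-only intervals far from GLI1 sites. These exact intervals cover counting error only. Inside a gene and away from its ends lay 1572 regions (50.0%), and 1375 (43.7%) lay between genes, of which 422 were over 100 kb from any protein-coding gene. Of control-only intervals, 41.4% were inside genes (interval 39.51 to 43.33%, against 48.21 to 51.73%). Over 100 kb from any protein-coding gene lay 13.4% of the regions and 16.9% of the control-only intervals. Where the strand of the gene was known, 103 regions were at a 5′ end and 46 at a 3′ end alone, a 5′ share of 69.1%, whereas shared intervals at gene ends were at the 5′ end in 96.3%. At gene ends the intervals of the new and the control-only shares overlapped, and the share of acetylation kept in both conditions lay apart from both.

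Of the 10 regions at gene ends with the highest −log10 q, 3 covered a start site. At F2rl3, which encodes the thrombin receptor PAR4, chr8:72760259-72763084 covered the start site with a fold enrichment of 18.4, 36500 bp from any control interval. At F11, the coagulation factor XI gene, chr8:45260991-45263354 covered the start with 13.8, 95042 bp from a control interval. At Fgfr2, a fibroblast growth factor receptor gene, chr7:130263641-130267197 covered the start with 14.5 from 71 reads, and 21125 bp separated it from control acetylation. At Sdc4, a cell-surface proteoglycan gene, a region with 16.4 ended 806 bp from the start but only 360 bp from a control interval.

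Other gene ends were those farthest from the start. At Hopx, a cardiac homeodomain gene, chr5:77084853-77087102 lay on the 3′ end, 8165 bp from the nearest listed start site of the gene, with a fold enrichment of 14.2. The regions at Gpr55 (17.3), a lipid receptor gene, at Ctla4 (15.1), a T-cell inhibitory receptor gene, and in Pus10 (18.1), a pseudouridine synthase gene, were on 3′ ends as well. The regions beside Txnl4a and Ttc30b had 15.1 and 13.4.

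Acetylation of control cells was often near. A control interval lay within 1 kb of 289 regions (9.19%), within 5 kb of 853 (27.1%) and within 20 kb of 1851 (58.8%), with a median distance of 13823 bp. Only 258 regions (8.20%) were over 100 kb from control acetylation, and 6.92% of control-only intervals were as far from induced acetylation. New intervals beside GLI1 sites had a control interval within 5 kb in 27.7%, a share inside the interval of 25.57 to 28.70% of the regions far from GLI1 sites. Of control-only intervals, 40.5% had an induced interval within 5 kb (38.60 to 42.41%). The induced list is also the longer of the pair, which by itself offers more neighbours, and the part of list length in this difference was not tested.

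**Figure D2:**
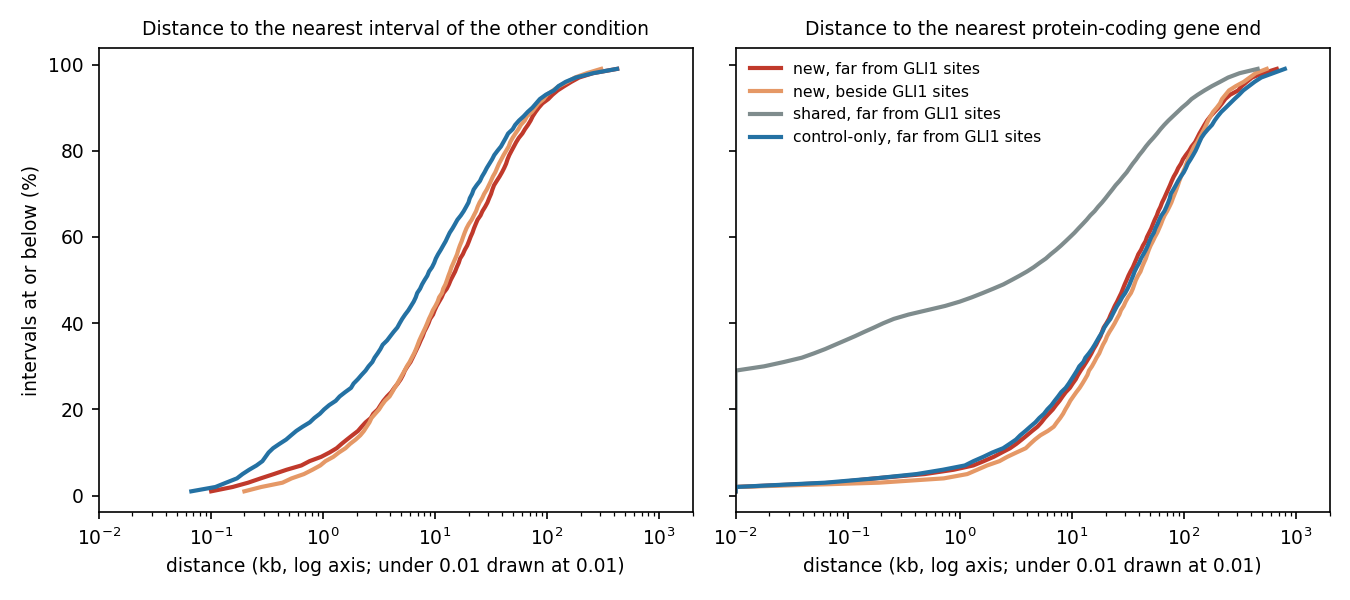
Cumulative share of intervals (vertical axis, %) by distance (horizontal axis, kb, log scale) to the nearest interval of the other condition on the left and to the nearest end of a protein-coding gene on the right. On the left the new intervals far from and beside GLI1 sites run together (27.1% and 27.7% within 5 kb) below the control-only intervals (40.5%), and on the right only the shared intervals stand close to gene ends (45.0% within 1 kb).

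The regions were more scattered than those beside GLI1 sites. Another region of the same kind lay within 50 kb of 1218 of them (38.7%), against 72.3% for new intervals beside GLI1 sites, 80.2% for shared and 43.4% for control-only intervals; these shares also follow how many intervals each set holds and, beside GLI1 sites, the windows that define the set. Joined at gaps of at most 50 kb, the regions formed 2453 chains, of which 1928 held a single region and 129 held at least 3. The distance to the nearest listed GLI1 site had a median of 319184 bp, with 485 regions (15.4%) at 50 to 100 kb and 497 (15.8%) over 1 Mb away. For control-only intervals the median was 373460 bp, with 11.2% at 50 to 100 kb and 20.5% over 1 Mb. For shared intervals it was 342420 bp, with 13.8% and 17.0%.

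The largest chain, 6 regions at chr10:24006049-24087791, ran through the cluster of trace amine receptor genes, whose products are olfactory receptors for amines. Its regions, beside Taar7b, Taar7e, Taar7f and Taar8b, had fold enrichments from 6.27 to 11.7, no control interval lay among them, and the closest was 38696 bp from the last. The genes of this cluster are near-identical copies in part, so the place of reads within it is uncertain. A chain of 5 regions lay on Runx2, the master factor of bone formation, and the overlapping Supt3, at chr17:44813948-44842746, with 4.94 to 9.22 and no control interval inside. The region with 9.22, chr17:44814513-44815748, covers the Runx2 start shown above. In Lars2, 5 regions had 5.16 to 24.4. A further 5, from 6.48 to 16.0, lay within 15005 bp at chr14:37270783-37285787, with no protein-coding gene within 50 kb. The 5 near Zfhx3, a homeodomain zinc finger gene, at chr8:108183270-108248925, had 5.27 to 7.31 and 8 control intervals among them.

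Acetylation that both conditions shared was compared near and far from the regions, as the log2 ratio of induced over control fold enrichment, centred on its median over all shared regions (−0.13 before centring). Among 28585 shared regions far from GLI1 sites, 5.14% had a centred ratio of at least 1 and 8.67% of at most −1. Within 5 kb of a new region the median ratio of 961 shared regions was 0.27, with 15.2% at 1 or above and 2.50% at −1 or below. At 5 to 20 kb the median was 0.07 and at 20 to 50 kb 0.00. Beyond 200 kb it was −0.05, with 4.11% and 9.29%. Around the control-only intervals the order was the opposite, with a median of −0.57 within 5 kb, where 28.9% were at −1 or below and 0.601% at 1 or above, and −0.24 at 5 to 20 kb. The offset near new regions was also seen apart from promoters: where no gene end was within 1 kb, shared regions had a median of 0.28 within 5 kb and of −0.17 with no new region within 200 kb, and those at gene ends 0.26 and 0.12. These ratios come from the same pair of lists as the rule and carry no test.

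**Figure D3:**
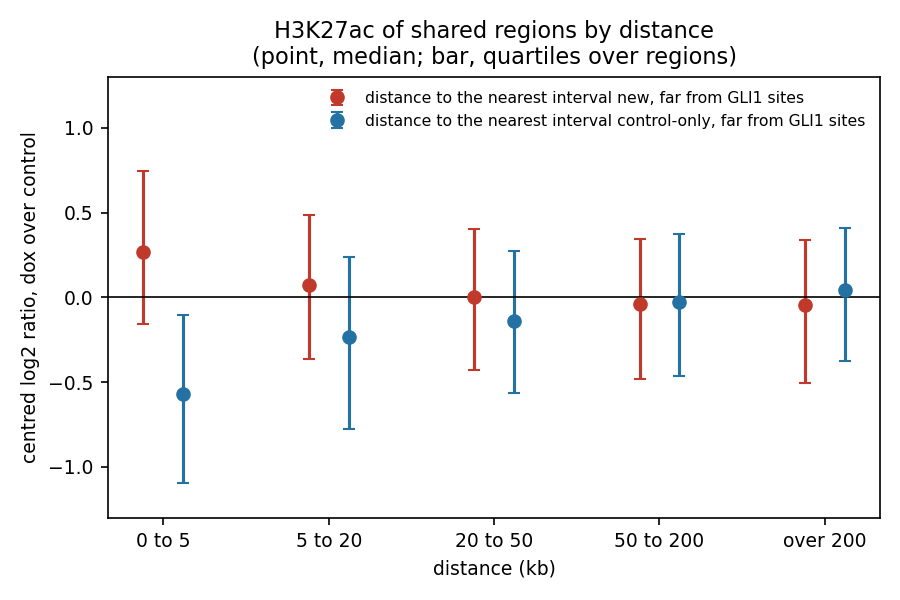
Centred log2 ratio of H3K27ac fold enrichment in induced over control cells (vertical axis) of regions shared by both conditions, by distance in kb (horizontal axis) to the nearest new interval far from GLI1 sites or to the nearest control-only interval; points are medians and bars quartiles over regions, which are not replicates. Medians run from 0.27 to −0.05 away from new intervals and from −0.57 to 0.04 away from control-only intervals, and the quartiles of neighbouring distances overlap.

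At gene ends the difference was small. Genes with an interval at an end in both conditions, and with neither a new nor a control-only interval within 50 kb, had a median centred ratio of 0.16 (5594 genes). With 1 new region within 50 kb the median was 0.17 (1156 genes), and with at least 2 it was 0.19 (313 genes). With 1 control-only interval it was 0.07 and with at least 2 it was 0.00. The quartiles of the genes with at least 2 new regions, −0.08 and 0.50, spanned nearly those of the genes with none, −0.12 and 0.43.

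A new region far from GLI1 sites lay within 50 kb of an end of 3181 of 20480 protein-coding genes (15.5%), and a control-only interval near 2379 (11.6%). Within 1 kb of an end a new region was found at 207 genes (1.01%). These shares are the background for the gene lists that follow. Where neighbouring genes share a region, it counts for each gene. Genes close to GLI1 sites lose the same stretches for new and for control-only intervals. A gene near a new region can itself have a listed GLI1 site within 50 kb of an end. Among the listed genes this held for Axin2, Fgfr2, Spred1, Spred2, Bmp5, Acvr1, Tgfbr2, Fli1, Npr3, Hhip, Foxd1 and Foxa2.

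New regions lay near several genes of the Wnt pathway. Of 36 Wnt pathway genes analysed, 11 (30.6%) had a new region within 50 kb and 5 (13.9%) a control-only interval, with 18 different new regions against 6. Axin2, which encodes a scaffold that destroys beta-catenin and is itself a target of the pathway, had 4 regions between 23273 and 35171 bp from its end, with fold enrichments of 6.05, 5.44, 7.59 and 5.30. Sfrp1, a secreted Wnt antagonist gene, had 3, at 5.83, 11.9 and 7.78. Tcf7l1, a repressor of Wnt targets, had 2, at 6.48 and 10.5, and Sp5, a target gene of the pathway, had 2, at 8.96 and 5.83. The other 7 had 1 region each and are named after their values were seen: the ligand genes Wnt2b (10.5) and Wnt5b (5.12), the receptor genes Ror2 (5.51), Lrp6 (8.64) and Lgr5 (7.99), and the factor genes Lef1 (7.87) and Tcf7l2 (6.91). The regions near all 11 were over 50 kb from GLI1 sites by the rule, but Axin2 itself had 1 listed site within 50 kb of an end. Sp5, Lef1, Lgr5 and Tcf7l1 had their regions over 1 Mb from a site.

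At the ends of several of these Wnt genes the induced value was the lower. Of the 11 genes, 7 had an interval at an end in both conditions, with a median centred ratio of −0.71, against 0.24 over the 13 Wnt genes so measured. At Sp5 the fold enrichment was 12.5 in control and 3.66 in induced cells, at Lef1 16.8 and 7.48, at Wnt2b 15.3 and 6.91 and at Ror2 21.1 and 11.8. At Tcf7l2 it was 34.2 and 47.9, at Tcf7l1 18.3 and 20.01, and at Lrp6 52.5 and 54.4. A new region and lower acetylation at the gene end were thus listed together at 4 of the 7.

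Of 35 BMP and TGF-beta genes, 10 (28.6%) had a new region and 5 (14.3%) a control-only interval, although each set counted 13 different regions. The ligand genes Bmp5 (fold enrichments 6.44 and 6.10), Bmp6 (5.30 and 5.83) and Tgfb1 (5.83 and 4.96) had 2 new regions each. Those named after their values were seen, with 1 region, were the ligand gene Tgfb2 (13.8), the receptor genes Acvr1 (13), Tgfbr1 (5.76) and Tgfbr2 (5.62), the antagonist gene Chrd (8.13), the latency protein gene Ltbp1 (4.96) and the target gene Id2 (5.46). The 7 of these genes with an interval at an end in both conditions had a median centred ratio of 0.07. Tgfb1 had the lowest of these ratios, from fold enrichments of 25.5 (control) and 13.4 (induced), and Tgfb2 the highest, from 2.37 and 3.89. Some of the new regions lay close to control acetylation: 91 bp at Tgfb1 (the region with 5.83), 121 bp at Ltbp1, 656 bp at Tgfb2 and 708 bp at Tgfbr2. With intervals of the other condition barred within 1000 bp, 7 genes had a new region and 5 a control-only interval.

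FGF genes had a new region at 8 of 29 (27.6%) and a control-only interval at 4 (13.8%). Besides the region on the Fgfr2 start, another at chr7:130277901-130280153, 11093 bp upstream, had a fold enrichment of 14.0, the only pair with both values above 12 among the listed genes. Fgfr2 also had 1 listed GLI1 site and 2 new intervals beside GLI1 sites within 50 kb of an end. Fgf7, the keratinocyte growth factor gene whose product is a ligand of an Fgfr2 isoform, had a region with 6.70 over its start, 1559 bp from a control interval. Etv1, a factor gene downstream of FGF signalling, had 2 regions at 5.83 and 7.99, and 21.9 in control against 37.6 in induced cells at its end. Dusp6, a feedback phosphatase gene, also had 2, at 5.83 and 7.35, with 51.0 and 58.1 at its end. The regions with 5.83 lay 567 bp from a control interval at Etv1 and 724 bp at Dusp6. With intervals of the other condition barred within 1000 bp, FGF genes stood at 8 against 2. The feedback inhibitor genes Spry2, Spry4, Spred1 and Spred2, named after their values were seen, had 1 region each, at 8.43, 5.40, 7.68 and 4.83.

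Endoderm genes had a new region at 7 of 25 (28.0%) and a control-only interval at 4 (16.0%). Genes of the integrated stress response had 6 of 24 (25%) against 3 (12.5%), with 2 regions each for Shmt2 (14.9 and 6.10), of serine metabolism, and Fgf21 (6.27 and 13.6), a stress hormone gene. Those of Shmt2 lay inside R3hdm2, 44805 and 25507 bp away. Those of Fgf21 lay inside Bcat2 and Rasip1, 44873 and 19369 bp away. The region in Bcat2 was 226 bp from a control interval and was also counted for Ppp1r15a. With a gene window of 20 kb, stress response genes stood at 2 against 2. Endothelial and blood genes had 6 of 30 (20%) against 5 (16.7%). Npr3, a natriuretic peptide clearance receptor gene of endocardium, had a region on its 5′ end at chr15:11907737-11909496 with 10.4 and another inside the gene with 8.86. Cdh5, encoding VE-cadherin, had 6.30 and 8.64, and Fli1, an ETS factor gene, 5.54 and 6.49.

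The sarcomere, cardiac factor, Notch, AP-1 and Hox lists had fewer genes near new regions than near control-only intervals. So did the Hedgehog, early mesoderm, smooth muscle, pluripotency and housekeeping lists given below. This order is against control-only intervals and not against all genes. Of all genes, 15.5% had a new region. The share was higher for smooth muscle (26.1%) and sarcomere genes (20%), and close to it for Notch (16.7%) and pluripotency genes (16.0%). It was lower for the others of these lists. Sarcomere and calcium handling genes had a new region at 8 of 40 (20%) and a control-only interval at 15 (37.5%). Tnnc1, cardiac troponin C, had 2 new regions at 5.40 and 5.12, and the others had 1. Cardiac transcription factors had 4 of 29 (13.8%) against 10 (34.5%), with Hopx the only one at a gene end, and Hey2, Gata4 and Tbx20 at 10.6, 4.64 and 6.05. Notch genes had 4 of 24 (16.7%) against 9 (37.5%), but Hes1, the main effector gene of the pathway, had 4 new regions from 18090 to 45677 bp away, at 6.89, 17.1, 7.36 and 9.53, and no control-only interval. AP-1 and immediate early genes had 2 of 25 (8.00%) against 8 (32.0%). None of the 39 Hox genes had a new region, and 10 (25.6%) had a control-only interval, although these 10 shared only 3 different intervals.

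These comparisons were counts in pooled lists and moved with the settings. Over 10 alternative settings, all genes together had more genes with new than with control-only acetylation in 9 and fewer in 1. Wnt and endoderm genes had more in 10, and FGF and stress response genes in 9, the same number as all genes. BMP and TGF-beta genes and forkhead genes had more in 8, which is no more often than all genes. Sarcomere, Notch and AP-1 genes had fewer in 10, and Hox, cardiac factor and Hedgehog genes in 9, each with 1 tie. Pluripotency genes also had fewer in 9, and smooth muscle and early mesoderm genes in 8. The share with a new region was also set beside that of all genes. It was higher in 10 settings for the Wnt, endoderm, FGF, stress response, BMP and TGF-beta and smooth muscle lists. For sarcomere genes it was higher in 8, for forkhead genes in 5, and for Hedgehog, Hox and neural genes in 0. With the minimum of the deeper list raised, Wnt genes stood at 9 against 5, endoderm at 5 against 4, FGF at 6 against 4 and BMP and TGF-beta at 5 against 5. All genes together then stood at 2356 against 2379.

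**Figure D4:**
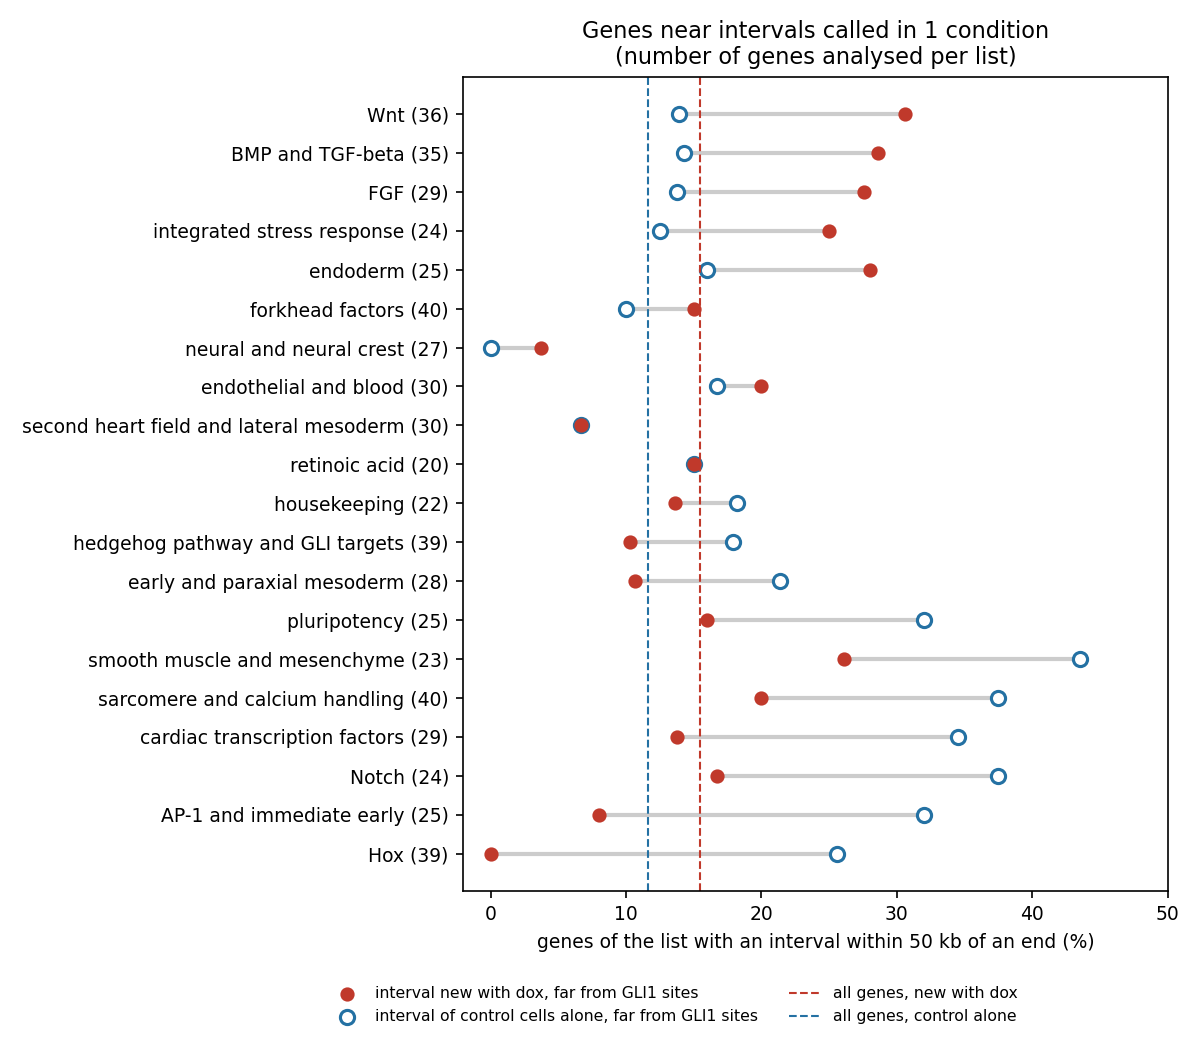
Share of genes (horizontal axis, %) in each of 20 lists (vertical axis, genes analysed in brackets) with a new interval far from GLI1 sites (filled) or a control-only interval far from GLI1 sites (open) within 50 kb of an end; dashed lines give the shares over all genes, 15.5% and 11.6%. Wnt (30.6% against 13.9%), BMP and TGF-beta, FGF, stress response and endoderm lists lie to the right for new intervals. The forkhead, endothelial and neural lists do so by less. Hox (0 against 25.6%), AP-1, Notch, cardiac factor, sarcomere, smooth muscle, pluripotency, early mesoderm, Hedgehog and housekeeping lists lie to the right for control-only intervals.

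Of 39 Hedgehog genes analysed, 18 had a GLI1 site within 50 kb, 4 (10.3%) had a new region far from GLI1 sites, 13 (33.3%) a new interval beside them, and 7 (17.9%) a control-only interval far from them. Hhip, the Hedgehog-binding antagonist gene, had 2 regions far from GLI1 sites at 7.46 and 6.40, 83601 bp or more from a site. Foxd1, a forkhead gene, had 2 at 4.55 and 5.23. Bcl2 and Foxa2, named after their values were seen, had 1 each, at 7.45 and 5.62.

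Among the remaining lists, early and paraxial mesoderm genes had 3 of 28 (10.7%) against 6 (21.4%). Ripply2, a segmentation gene, had 3 new regions at 6.70, 9.29 and 12.5, and Eya1, a mesoderm cofactor gene, had 2 at 8.46 and 6.08. Tbx6, a presomitic mesoderm factor gene, had 1 at 6.05, and the fold enrichment at its end was 5.12 in control and 19.4 in induced cells. Smooth muscle and mesenchyme genes had 6 of 23 (26.1%) against 10 (43.5%), pluripotency genes 4 of 25 (16.0%) against 8 (32.0%), forkhead genes 6 of 40 (15%) against 4 (10.0%), and housekeeping genes 3 of 22 (13.6%) against 4 (18.2%). Second heart field genes had 2 of 30 against 2, with Tcf21, an epicardial factor gene, at 2 regions of 5.59 and 5.83 and 5.74 in control against 11.8 in induced cells at its end. The other, Wnt2b, had 15.3 and 6.91 at its end. Retinoic acid genes had 3 of 20 against 3, with Rxra, a nuclear receptor gene, at 6.05 and 13.7. Neural genes had 1 of 27 against 0.

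By chromosome, the ratio of new to control-only intervals far from GLI1 sites ran from 0.620 to 1.64. It was highest on chromosomes 10 (180 against 110) and 6 (226 against 140). It was lowest on chromosome X, with 49 against 79, which was also the only chromosome with fewer intervals of any strength in induced than in control cells (1616 against 1856). Chromosomes 3 and 4 also had fewer new than control-only intervals, at 174 against 182 and 160 against 184.

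**Figure D5:**
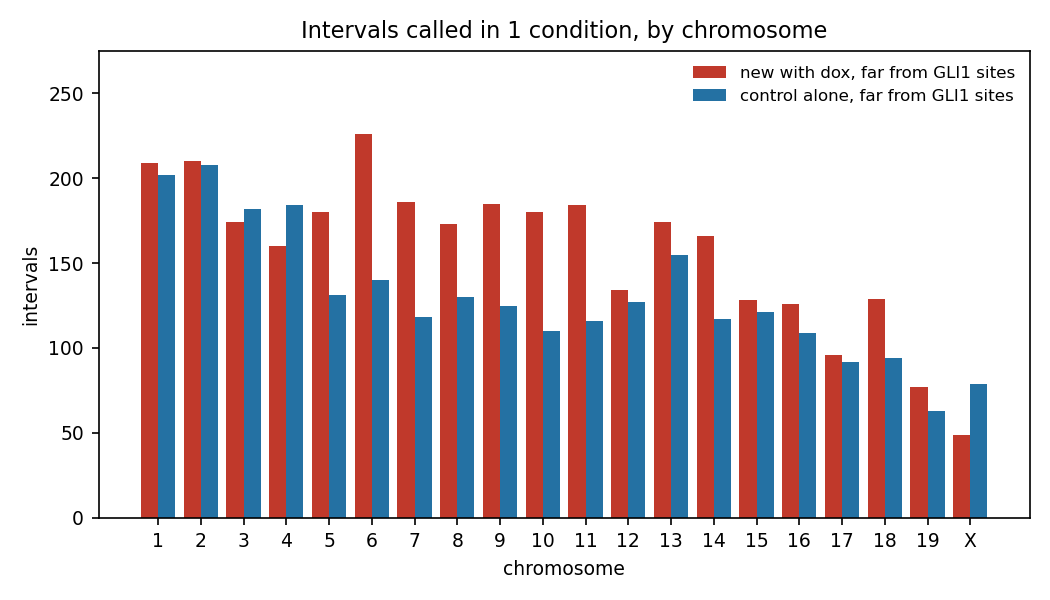
Number of intervals (vertical axis) far from GLI1 sites that were new with doxycycline or called in control alone, by chromosome (horizontal axis; Y, with none, is left out). New intervals are more numerous on every chromosome except 3, 4 and X, where they number 174, 160 and 49.

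Start sites inside the new regions were compared with other start sites by sequence. The regions overlapped 130 of 32851 RefSeq promoters, each 300 bp long, of 125 genes. Their median GC content was 51.7%, against 52.7% for all promoters, 53.0% for those in new intervals beside GLI1 sites, 62.0% for those in shared intervals far from the sites and 56.7% for those in control-only intervals. The median number of CpG dinucleotides was 6.5, against 7 for all, 8 for the new intervals beside GLI1 sites, 23 for the shared and 13 for the control-only promoters. Promoters in new acetylation, far from GLI1 sites or beside them, were thus close to the promoters of the whole table in both measures and below the shared ones.

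The 20 motifs were searched in the 300 bp promoters on both strands. The GLI motif GGGTGGTC was in 1 of the 130 (0.769%), in 0.807% of all promoters and in 5 of the 115 promoters (4.35%) inside new intervals beside GLI1 sites. The forkhead motif TGTTTAC was in 8 (6.15%), against 3.65% of all promoters, 3.20% of control-only promoters and 21.7% of those beside GLI1 sites. The TEAD motif GGAATGT was in 10 (7.69%), against 3.85% of all and 7.20% of control-only promoters. The nuclear receptor core AGGTCA was in 26 (20%), against 16.3% and 19.2%. The homeobox core TAATTA was in 2 (1.54%), against 5.29% and 2.40%, and the AP-1 motif TGANTCA in 5 (3.85%), against 7.81% and 8.00%. The ETS motif CCGGAAGT was in 7 (5.38%), against 3.89%, 5.60% and, in shared intervals, 10.1%. Several promoters share a locus, counts are small, and the genome sequence of the regions away from promoters was not analysed here.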

How the data were processed

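Chromatin immunoprecipitation followed by sequencing was done for H3K27ac and tagged GLI1. The tools were MACS2 2.1.1, Bowtie2 2.3.2 and SAMtools 1.5 with build mm10, per the submitters' processing notes, and the names of the deposited lists say that replicates were combined and blacklisted regions and the mitochondrial chromosome removed. The authors deposited, for each H3K27ac summit, a fold enrichment (a ratio of pileup to local background), a −log10 p, a −log10 q and a display score, and for each GLI1 summit window with a GLI motif a −log10 q. The control list reaches down to a −log10 q of 1.31 and the induced list to 1.33. The criteria for replication and for the motif are not given in the sources used here. The GLI1 list held 2605 sites under 2498 running numbers that reach 5999, so GLI1 summits outside it were not analysed here and the regions are far from the listed sites alone.

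Summits with the same interval were collapsed (142222 to 76437 in the induced and 126500 to 67463 in the control list), with the highest value kept. Distances count 0 for a shared base pair. Gene ends are the outer coordinates of 21900 protein-coding genes of RefSeq's GRCm38.p6 table. The design allowed for gene ends or start sites, and ends were used because the promoter table holds 17492 of these genes and none on chromosome 18. The running numbers skip 335 stretches of the control list and 359 of the induced list. Genes with an end there (1420) were left out, leaving 20480, and 60 of the 3146 regions lie there. Pileup and background were solved from fold enrichment and p within a tolerance of 0.01 for all summits. Proportions have exact Clopper-Pearson intervals at 95%, which cover counting error alone and take intervals as independent. No test was run, since each list is 1 pool. The fold enrichments of shared regions were compared over merged intervals. The scripts were tested on simulated data. Python 3.11.15, numpy 2.4.6, pandas 2.3.3, scipy 1.17.1 and matplotlib 3.10.9 were used.

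The regions, gene lists and motifs were chosen with earlier results of these data known. Regions named are the 15 with the highest −log10 q (at most 2 per nearest gene), the 10 at gene ends with the highest, the 5 largest chains and those at the limits of the rule. Genes named are the 5 with most regions within 50 kb and, of the lists, those with a region at an end and up to 4 per list with most regions; of the genes with most regions, Adgrv1, Agbl3, Eif2ak4, Extl3 and Srp14 had 5 each beside those described. Some genes that the rule names are not reported here. Sequences cover only 250 bases before start sites. Alternatives changed the −log10 q minimum, the GLI1 distance, the gap to control, the measure of strength, the skipped stretches, the depth and the windows. List counts under other windows and rules were added after the data had been seen.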

Additional observations from a re-analysis of the deposited data

How the results depend on the processing

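The number of regions was 9488 at a −log10 q of at least 5 and 1054 at 20. It lay between 2661 and 3846 under the other alternatives except that for depth. With the minimum of the deeper list raised by the ratio of depths, the regions were fewer than the 2603 control-only intervals, at 0.849 per interval. The median fold enrichment was 4.54 at a −log10 q of at least 5, 9.28 at 20 and 6.34 with a fold enrichment of at least 5 in its place. The share at a gene end was 4.94% with no control interval within 1000 bp and 16.1% with a window of 5000 bp. The share with a control interval within 5 kb was 34.5% at a −log10 q of at least 5, 21.3% at 20, 19.7% with no control interval within 1000 bp, and 14.7% and 58.8% with windows of 2 and 20 kb. The share with another region within 50 kb was 66.8% at a −log10 q of at least 5, 21.2% at 20, 41.7% with GLI1 sites barred within 10 kb and 28.4% with a window of 20 kb. The number of regions per control-only interval was 1.09 at a −log10 q of at least 5, 1.82 at 20, 1.35 with GLI1 sites barred within 10 kb, 1.37 with no control interval within 1000 bp, 0.937 with fold enrichment in place of −log10 q and 0.849 with the minimum of the deeper list raised by the ratio of depths. A looser or stricter minimum or window changes how many intervals enter, and other causes were not tested. The other 25 values of these 6 results stayed within 1.5 times the reported number, for the number of regions, or moved by less than the interval used to judge them. Of 200 list counts under alternatives, 120 stayed within 1.5 times the reported count and 80 did not. No paired analysis was possible because each list pools its 2 samples, and for the same reason no replicate could be left out. Depth limits the faint end: a region is new only in that control cells had no call, and the weakest control summits at the uniform background held 9 reads.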

Other observations

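The RefSeq table places 26 of 1005 microRNA hairpins within 10 kb of a new region far from GLI1 sites. The number near control-only intervals is not given here. The hairpins were chosen after their values were seen, and their sequences are shown because 2 neighbours share a seed (bases 2 to 8, in capitals).
miR-497a-5p: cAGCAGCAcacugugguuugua
miR-195a-5p: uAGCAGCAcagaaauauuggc
miR-139-5p: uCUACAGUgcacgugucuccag
miR-30a-5p: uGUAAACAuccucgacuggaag
The region chr11:70233715-70234639, with a fold enrichment of 5.31 from the authors' list, ends 78 bp from the Mir497 hairpin and 403 bp from Mir195a, and a control interval lies 582 bp from it. The 5p arms of both hairpins have the seed AGCAGCA, that of the miR-15 and miR-16 family, whose members restrain cell cycle genes in heart muscle. A region with 9.51 lies 2067 bp from Mir139 and 42572 bp from control acetylation, and a region with 13 lies 6481 bp from Mir30a and 4656 bp from control acetylation. Whether any of these microRNAs changes in level was not measured in these data.

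Outside the named lists, some genes had many regions. Eif2ak4, which encodes the amino acid sensing kinase GCN2, and its neighbour Srp14 had 5 regions within 50 kb of an end and no control-only interval, and so had Agbl3. Extl3, an enzyme gene of heparan sulfate synthesis, and Adgrv1, an adhesion receptor gene, had 5 regions and 1 control-only interval each. No listed GLI1 site lay within 50 kb of an end of any of these 5 genes.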
